A study of Pleurotus ostreatus with 32 samples.

Results

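The genes described here were those of the oyster mushroom Pleurotus ostreatus whose RNA was lower in the dedifferentiated cap than in each of 10 other developmental groups. A gene was a member when its mean log2 FPKM in the dedifferentiated cap lay at least 1 below the lowest group mean elsewhere, which is a 2-fold gap, and when its mean raw count reached 100 in each of those 10 groups. FPKM is the number of sequenced fragments per kilobase of gene and per mega of fragments. The deposited values matched library sizes adjusted by a scaling factor per library (TMM), rather than plain fragment totals. Of 6807 genes past the count minimum, 90 were members. The deposited log2 FPKM table lists 10755 genes and the count tables list 12329.

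All samples came from N001 (CECT-20600), a dikaryotic strain, whose cells hold a pair of genetically unlike nuclei. Spawn was grown in bags at 18 to 19 °C under a cycle of 8 h light and 16 h dark, and the air was kept at 80 to 85% relative humidity. The groups were vegetative mycelium, stage 1 primordia sampled whole, the cap and stipe of stage 3 primordia, the cap and stipe of young fruiting bodies, and the cap, stipe, lamellae, skin and dedifferentiated cap of fruiting bodies carrying no stage in their labels, called mature here. There were 2 libraries of the dedifferentiated cap and 3 of each other group. A replicate pooled tissue from 3 to 8 fruiting bodies. No group carried a mutation or a drug treatment by its labels, and the labels do not say how the dedifferentiated cap was obtained or recognised.

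A mushroom starts as loose vegetative mycelium, the feeding network of filaments called hyphae. Hyphae then aggregate into primordia, which grow a stipe that lifts the cap and, under the cap, lamellae that carry the spore-forming cells. Fungal cells keep much of their capacity to return to vegetative growth, and pieces of mushroom flesh laid on a medium grow out as mycelium again, which is how growers clone strains. A dedifferentiated tissue is one that has lost its specialised state.

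Genes are identified by the numbers the files give them. None of these numbers matched the reference gene list used here, so the products of the members, their sequences and a check of each tissue against its marker genes were not analysed here. The libraries held 13.5 to 25.9 M counts, with 19.5 and 21.0 M in dedifferentiated cap replicates 1 and 2. A pair of libraries stood apart from their groups for these genes. In stage 3 stipe replicate 3 the median member was 0.55 log2 above its own mean over the 10 groups, against -0.06 and -0.30 in stipe replicates 1 and 2, and 28 of the 90 members had their highest value of the 30 other libraries there. Of all genes past the count minimum, 21.0% had their highest value in that library. In young cap replicate 3 the median member was at 0.34, against -0.13 and -0.25 in young cap replicates 1 and 2. The part of these libraries in the results was not tested, beyond the counts given without them.

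The members were chosen by their log2 FPKM in the dedifferentiated cap against the other groups, so the next 4 paragraphs describe them without a test. Below the lowest other group mean, the gap had a median of 1.27 log2, or 2.42-fold, with quartiles of 1.12 and 1.67. The gap was at least 2 log2 in 13 members and at least 3 in 4. Against mature cap the median difference was 2.24 log2, or 4.73-fold, and it ran from 1.08 to 8.13. The median fold of the other groups over the dedifferentiated cap was lowest for lamellae at 3.83 and highest for mature stipe at 5.58. Tissue RNA cannot tell apart fewer cells of a type and less RNA per cell.

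**Figure D1:**
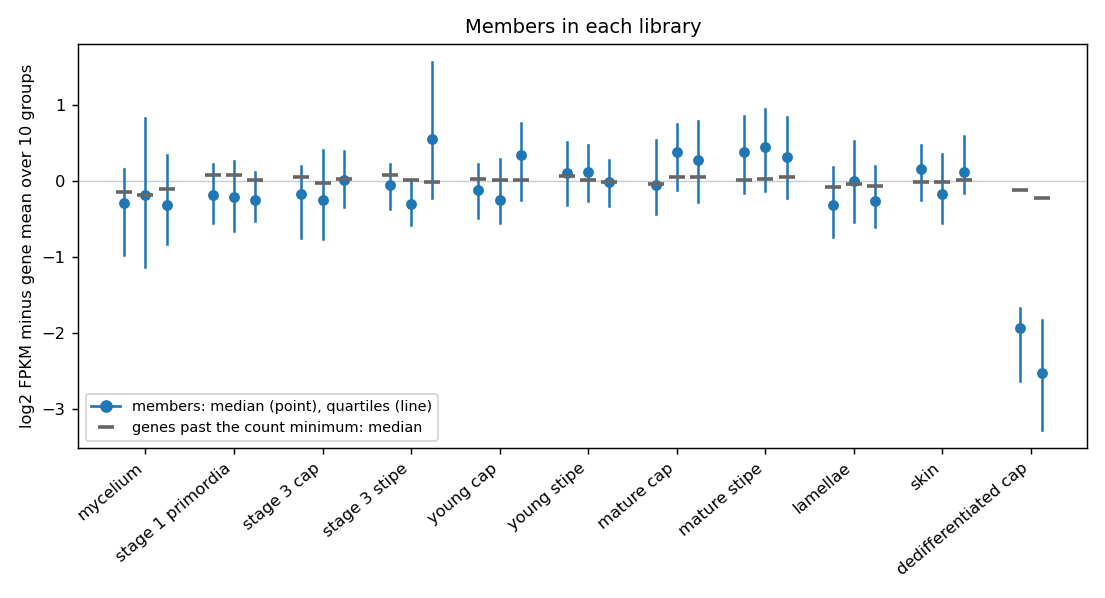
Members in each of the 32 libraries, as log2 FPKM minus the mean of the gene over the 10 groups other than dedifferentiated cap. Points are medians over the 90 members, lines span the quartiles, and grey dashes are medians over the 6807 genes past the count minimum. The members' medians in the dedifferentiated cap libraries are -1.93 and -2.53, and the highest median is 0.55, in stage 3 stipe replicate 3.

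Together the members took 0.396% (exact 95% interval 0.393 to 0.399) of the counts in dedifferentiated cap replicate 1 and 0.192% (0.190 to 0.194) in replicate 2. The intervals cover counting error only. In mature cap the share was 2.24% ± 0.085 (SD, n = 3), in mature stipe 2.23% ± 0.0286 (SD, n = 3) and in skin 2.02% ± 0.0649 (SD, n = 3). It was lowest of the 10 groups in stage 3 cap at 1.23% ± 0.136 (SD, n = 3) and mycelium at 1.25% ± 0.148 (SD, n = 3). Lamellae held 1.32% ± 0.0237 (SD, n = 3) and stage 1 primordia 1.38% ± 0.114 (SD, n = 3). Young cap at 1.53% ± 0.0814, stage 3 stipe at 1.68% ± 0.161 and young stipe at 1.85% ± 0.125 (SD, n = 3 each) lay between. Without the 3 most abundant members the dedifferentiated cap libraries held 0.231% and 0.169%, and the 30 others 0.894 to 1.69%.

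The members were low in the dedifferentiated cap but remained detected there. FPKM was at least 1 in both libraries for 86 of the 90, and no member had a count of 0 in either. The lowest count was 6, for gene 8544 in replicate 1, and 25 members had under 100 counts in at least 1 of the libraries. Ranked among all genes of the table, the median member lay at percentile 32.7 in the dedifferentiated cap and at percentile 69.9 in mature cap. For 76 of the 90 members both dedifferentiated cap libraries lay below all 30 others, which held for 3.94% of the genes past the count minimum. That contrast chose the members, and nothing is read from it.

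The dedifferentiated cap replicates did not always sit together. They were more than 1 log2 apart for 26 of the 90 members, 28.9%, against 15.5% of the genes past the count minimum. In 23 of these 26 the second replicate was the lower one. It was the lower one for 53 of all 90 members, and for 3565 of the 6807 genes past the count minimum. The mean of these libraries chose the members, and nothing is read from these shares. Taken alone, replicate 1 lay at least 1 below the lowest other group mean for 62 members, replicate 2 for 78 and each of them for 50. With replicate 1 left out 159 genes met the rule, of which 78 were members, and with replicate 2 left out 108 met it, of which 62 were members. The same rule applied to each other group in turn gave 258 genes for mycelium, 40 for lamellae, 15 for stage 3 cap, 13 for mature stipe and at most 9 for any other.

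**Figure D2:**
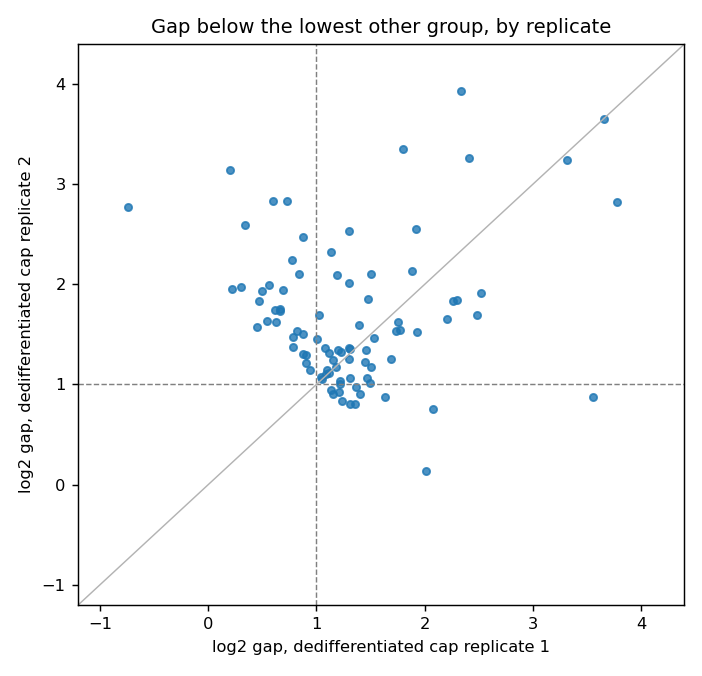
Log2 gap below the lowest other group mean for each of the 90 members, in dedifferentiated cap replicate 1 (x axis) and replicate 2 (y axis). Dashed lines mark a gap of 1, and the grey line marks equal gaps. Both gaps are at least 1 for 50 members.

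Gene 6148 had the largest gap. Its FPKM was 3.00 and 3.01 in dedifferentiated cap, 229, 292 and 275 in mature cap, and 38.0, 36.2 and 39.2 in lamellae, the lowest group elsewhere. The dedifferentiated cap libraries agreed closely and lay 12.6-fold below lamellae and 87.8-fold below mature cap by mean log2. Within stage 1 primordia the gene was uneven, at 18.1, 82.2 and 142.

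Genes 8544 and 10088 followed, with gaps of 9.85-fold and 9.70-fold. Gene 8544 was weak everywhere, at 0.177 and 0.342 FPKM in dedifferentiated cap against 11.4, 17.7 and 13.7 in mature cap. For gene 10088 the dedifferentiated cap FPKM was 1.42 and 1.49, and the mature cap values were 68.9, 81.4 and 81.6. Both genes had their highest single value in stage 3 stipe replicate 3, where gene 10088 reached 367 against 38.2 and 32.3 in stipe replicates 1 and 2, and gene 8544 reached 25.5 against 4.12 and 2.50.

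Gene 2882 was high in lamellae and young stipe rather than in mature cap. Its FPKM was 960, 1280 and 1052 in lamellae and 1076, 887 and 859 in young stipe, and 338, 304 and 233 in mature cap. In dedifferentiated cap it was 21.6 and 7.17, below the mycelium values of 111, 107 and 110. Mycelium was its lowest group elsewhere, 8.77-fold above the dedifferentiated cap.

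The other 6 of the 10 largest gaps ran from 7.14-fold for gene 7578 to 4.26-fold for gene 10096. Gene 7578 had 0.905 and 0.5002 FPKM in dedifferentiated cap, and gene 11302 had 26.4 and 9.02. Gene 3115 stood at 9.15 and 5.91, and was highest in lamellae at 175, 145 and 129. Gene 1860 was the least even of them, at 0.654 and 4.20, and its lowest group elsewhere was mature cap at 5.94, 10.2 and 7.44. Gene 10096 stood at 0.951 and 1.64.

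The most abundant member was gene 8474, with 16430, 15780 and 13080 FPKM in mature stipe and 11040, 14400 and 11370 in mature cap. In dedifferentiated cap it was 319 and 105, and in mycelium, its lowest group elsewhere, 602, 626 and 532. Gene 11982 had 4525, 4527 and 3876 FPKM in mature stipe and 89.0 and 135 in dedifferentiated cap, with its highest single value, 8851, in stage 3 stipe replicate 3.

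Gene 6648, of like abundance, was a member through one library. Its dedifferentiated cap FPKM was 2192 and 192, and 14 of the 30 other libraries lay at or below the first of these. Its gap of 1.02 log2 put it next to the threshold, with gene 9594 at 1.01, which had 50.8 and 23.3 FPKM. Just outside were gene 5823 at 0.996, with 105 and 99.3 FPKM, and gene 11694 at 0.993, with 1.32 and 2.40.

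**Figure D3:**
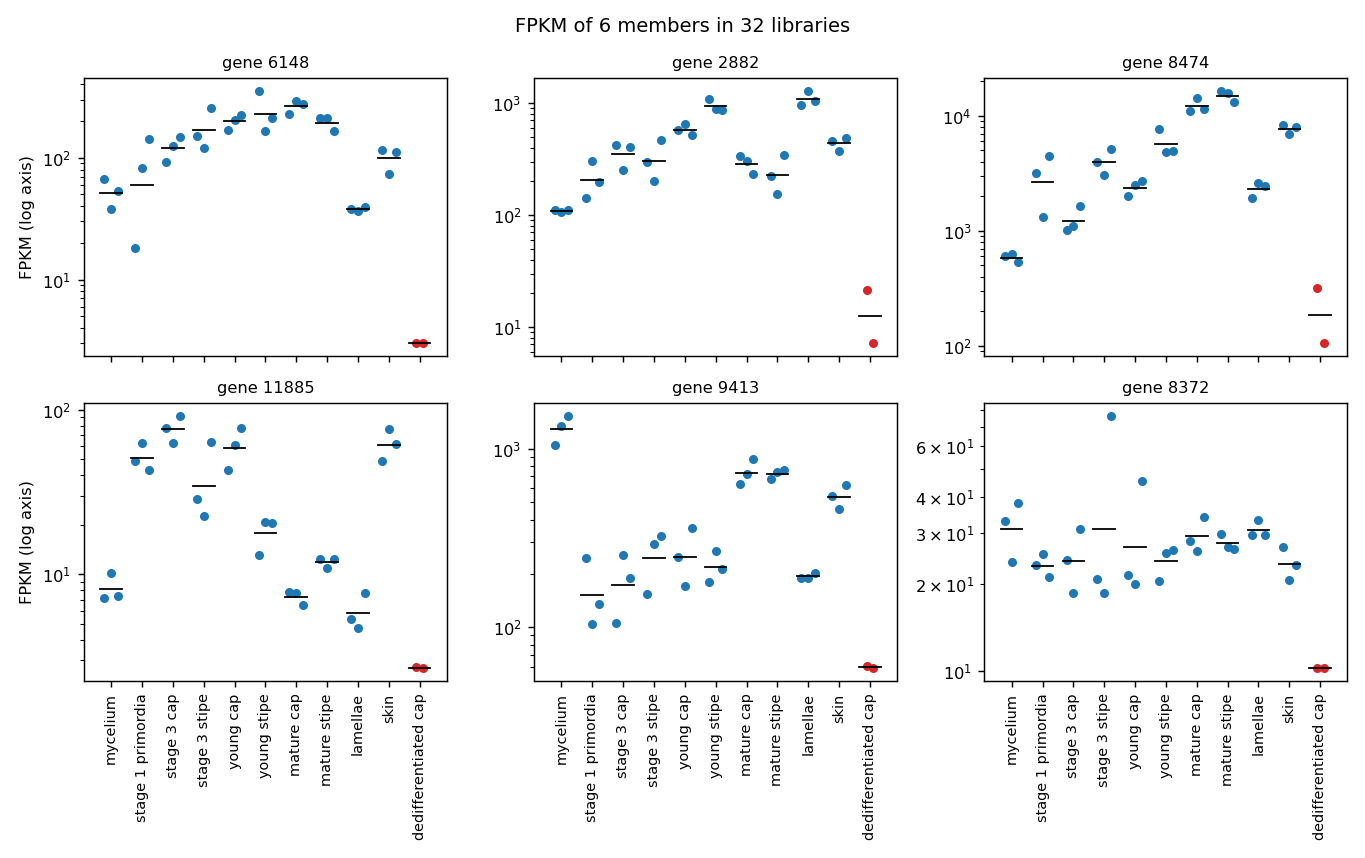
FPKM on a log axis of 6 members in all 32 libraries, dedifferentiated cap in red and the other groups in blue, with a black line at each group's geometric mean. Gene 8372 lies between 18.5 and 76.2 in the 30 other libraries, and gene 8474 between 532 and 16430.

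Across the 10 other groups the members did not follow a single profile. Over pairs of members the correlation of the 10 group means had a median Pearson r of 0.09 (4005 pairs). Of these pairs 43.3% were below 0 and 3.55% above 0.8. The points of a pair share their libraries, and no value for pairs of other genes is given for comparison. Relative to each gene's mean over the 10 groups, the median member was at -0.30 log2 in mycelium and 0.36 in mature stipe. Medians over the genes past the count minimum were -0.16 and 0.03. The range of group means had a median of 1.81 log2, or 3.50-fold, against 1.84 over the genes past the count minimum. A range of 16-fold or more was reached by 6 members, and 16 members (17.8%, against 12.9%) stayed within 2-fold. Mean FPKM over the 10 groups had a median of 69.5 among members and 69.1 among the genes past the count minimum. Gene length as the counts and FPKM imply it had a median of 1025 bases against 971.

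Gene 8372 varied least over the 10 group means, 1.34-fold, and had 10.2 FPKM in each dedifferentiated cap library. Its mature cap values were 28.1, 25.9 and 34.1, and its mycelium values 32.9, 23.7 and 38.0. Genes 3759 and 11680 came next, with ranges of 1.42-fold and 1.49-fold. In all 3 genes the highest single library was stage 3 stipe replicate 3, at 76.2, 79.1 and 40.6 FPKM.

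At the other end, gene 8165 varied 105-fold. Its FPKM was 13.9, 16.6 and 59.3 in mycelium, 208, 178 and 338 in young cap, 2790, 2247 and 2543 in mature cap, and 5.66 and 14.2 in dedifferentiated cap. Of the 30 other libraries, 2 lay at or below its higher dedifferentiated cap value. Gene 6830 varied 34.2-fold, from 1.64, 9.91 and 3.06 in mycelium to 123, 127 and 128 in mature stipe, with 1.58 and 1.84 in dedifferentiated cap.

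Mature stipe was the highest of the 10 groups for 27 members and mature cap for 16. These 43 are 47.8% of the members, and 26.6% of the genes past the count minimum had their highest mean in one of these groups. Mycelium was highest for 11 members (12.2%, against 19.96% of the genes past the count minimum) and stage 3 stipe for 9 (10%, against 13.03%). Lamellae were highest for 7 (7.78%, against 8.65%) and stage 3 cap for 6 (6.67%, against 16.1%). Without stage 3 stipe replicate 3, a setting chosen after seeing the data, stage 3 stipe was highest for 4 members, and mature cap or stipe again for 43. The lowest of the 10 groups was mycelium for 29 members (32.2%, against 27.3%), lamellae for 16 (17.8%, against 10.9%) and stage 1 primordia for 12 (13.3%, against 3.32%). Mature stipe was lowest for 4 (4.44%, against 13.4%) and stage 3 stipe for 3 (3.33%, against 11.4%). These shares are descriptions, since the rule kept out genes with a deep low in any of the 10 groups.

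**Figure D4:**
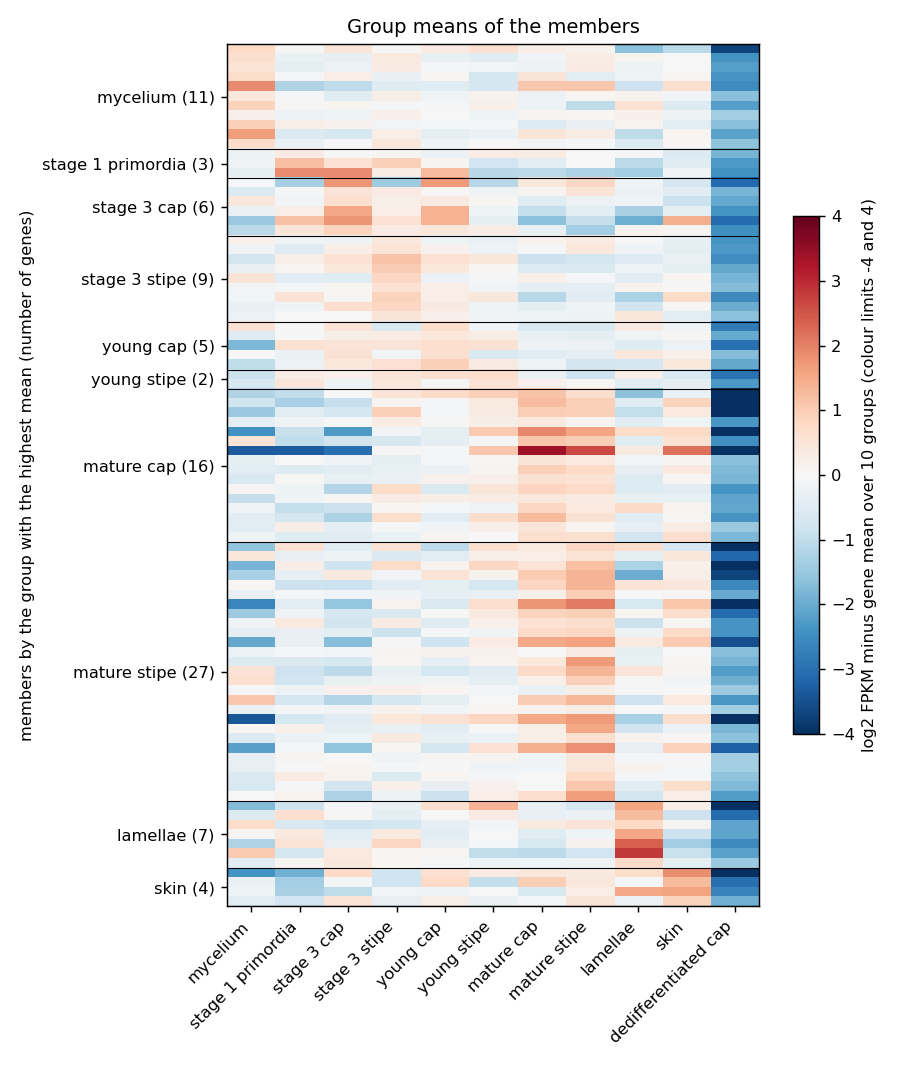
Group means of the 90 members as log2 FPKM minus the mean of each gene over the 10 groups other than dedifferentiated cap, with one line per gene. Genes are stacked by the group with their highest mean, which is mature stipe for 27 and mature cap for 16. Red is above and blue below the gene's mean, and values past 4 take the end colours.

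Contrasts that left the dedifferentiated cap out were tested with edgeR's quasi-likelihood test on the counts of the 30 other libraries. Calls required a change of at least 2-fold and, by the Benjamini-Hochberg method over 10754 genes, an adjusted p under 0.05. Fold changes below are log2 with their SE, with n = 3 libraries in each group. An F test over the 10 groups with at least a 4-fold range called 42 of the 90 members (46.7%), where the background was 52.6% of all genes tested and 42.8% of those past the count minimum.

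At the start of fruiting, stage 1 primordia against mycelium, 18 members rose and 10 fell. These are 20% and 11.1% of the members, and the background was 21% and 26.5% of all genes tested, or 24.8% and 17.6% of those past the count minimum. The median change was 0.25 among members, -0.06 over all genes and 0.25 over those past the count minimum. Without mycelium replicate 2, 23 members rose and 6 fell, and their median was 0.38. Of the 6807 genes past the count minimum, 1589 rose and 1020 fell in that setting, against 1688 and 1201 in the reported fit. Their median was 0.27. Gene 11885 rose from 7.17, 10.2 and 7.32 FPKM to 49.1, 62.5 and 42.8, a change of 2.73 ± 0.34 (adjusted p 3.39e-07). Gene 6948 rose from 29.3, 20.9 and 22.5 to 123, 151 and 110 (2.48 ± 0.22, adjusted p 3.0e-09). In both genes the groups did not overlap.

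The largest fall was that of gene 9413, from 1054, 1346 and 1522 FPKM in mycelium to 244, 104 and 135 in stage 1 primordia (-2.94 ± 0.36, adjusted p 3.31e-07). Gene 9413 stayed between 106 and 359 FPKM through the stage 3 and young tissues and was 633, 720 and 869 in mature cap, against 60.9 and 59.1 in dedifferentiated cap. Gene 2646 fell from 209, 155 and 180 to 39.1, 33.7 and 45.2 (-2.12 ± 0.34, adjusted p 1.22e-05). For both genes mycelium was the highest group and the dedifferentiated cap the lowest.

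From young to mature cap 15 members rose and 11 fell, 16.7% and 12.2%, beside 17.6% and 18.6% of all genes tested and 16.3% and 19.8% of those past the count minimum. The split depended on the scaling: with library size alone 13 members rose and 18 fell, and the median over all genes shifted by -0.20. Of the 6807 genes past the count minimum, 826 rose and 1732 fell in that setting, against 1111 and 1346 in the reported fit. Without young cap replicate 3, and likewise without mature cap replicate 3, 14 members rose and 7 fell. Among genes past the count minimum, 954 rose and 1103 fell without the first library, and 935 and 1048 without the second. Gene 8165 rose by 3.33 ± 0.68 (adjusted p 0.00041), with the FPKM given above. Gene 8474 rose from 1990, 2489 and 2710 to 11040, 14400 and 11370 (2.28 ± 0.35, adjusted p 1.62e-05).

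Gene 11885, which had risen in primordia, fell in the same step from 42.8, 61.3 and 77.4 FPKM to 7.81, 7.69 and 6.50 (-3.12 ± 0.34, adjusted p 2.49e-07). Gene 10413 fell from 48.1, 51.3 and 92.7 to 10.96, 11.7 and 13.9 (-2.47 ± 0.36, adjusted p 1.04e-05). Neither gene had overlapping groups. Both were already low in mature cap, and their dedifferentiated cap values were 2.72 and 2.68 FPKM for gene 11885 and 5.29 and 4.28 for gene 10413.

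From young to mature stipe 15 members rose and 4 fell, 16.7% and 4.44%, beside 18.8% and 15.4% of all genes tested and 15.6% and 17.1% of those past the count minimum. With library size alone 8 members rose and 9 fell, and the median over all genes shifted by -0.25. Of the 6807 genes past the count minimum, 805 rose and 1669 fell in that setting, against 1064 and 1161 in the reported fit. Gene 11589 rose from 105, 43.5 and 75.9 FPKM to 320, 300 and 238 (1.83 ± 0.36, adjusted p 0.000254), and gene 5722 from 10.4, 11.6 and 21.7 to 54.6, 66.2 and 39.1 (1.76 ± 0.44, adjusted p 0.00251). The groups did not overlap in either gene. Gene 2882 fell from 1076, 887 and 859 to 225, 153 and 340 (-2.08 ± 0.32, adjusted p 1.71e-05). Gene 4105 fell from 232, 280 and 197 to 75.1, 60.8 and 88.3 (-1.77 ± 0.26, adjusted p 7.62e-06).

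Of the 15 members that rose in the last cap step and the 15 that rose in the last stipe step, 8 were shared, 53.3% of each. Among genes past the count minimum the shared genes were 61.3% of the cap list and 64% of the stipe list. Genes 8474, 9413 and 9594 were among the 8. Of the 11 and 4 that fell, 3 were shared, among them genes 2882 and 10096. These are 27.3% of the cap list and 75% of the stipe list, against 62.2% and 72.1% among genes past the count minimum; the difference was not tested.

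**Figure D5:**
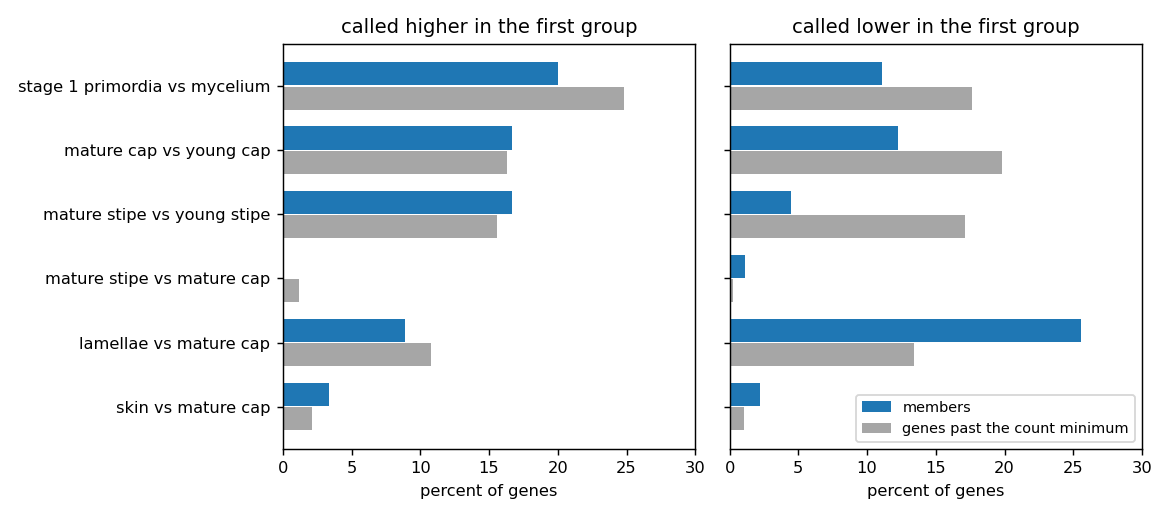
Percent of genes called higher (left) or lower (right) in the first-named group of 6 comparisons, for the 90 members (blue) and the 6807 genes past the count minimum (grey), by edgeR's quasi-likelihood test. Against mature cap, 25.6% of the members and 13.4% of the genes past the count minimum were lower in lamellae.

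Of the 3 comparisons with mature cap within mature fruiting bodies, that with lamellae gave the most calls. There 8 members were higher and 23 lower in lamellae, 8.89% and 25.6%, beside 14.8% and 12.7% of all genes tested and 10.8% and 13.4% of those past the count minimum. The median difference was -0.27 among members, 0.04 over all genes and -0.03 over those past the count minimum. With library size alone 9 members were higher and 18 lower, and the members' median was -0.04. Of the 6807 genes past the count minimum, 1118 were higher and 617 lower in that setting, against 735 and 912 in the reported fit. Their median was 0.20. Without mature cap replicate 1, 5 members were higher and 21 lower, beside 676 and 856 of the genes past the count minimum. The rule set a floor on how low a member could be in lamellae, at 2-fold above the dedifferentiated cap, and no test of the members against other genes was made.

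Gene 9564 was lower in lamellae, at 12.3, 10.6 and 10.2 FPKM against 71.4, 82.9 and 115 in mature cap (-2.98 ± 0.41, adjusted p 4.95e-06). Gene 8165 was lower too, at 322, 254 and 353 against 2790, 2247 and 2543 (-3.00 ± 0.67, adjusted p 0.00117). The dedifferentiated cap was lower again, with 2.89 and 3.83 FPKM for gene 9564. Gene 549 went the other way, at 216, 238 and 227 in lamellae against 17.7, 21.1 and 9.80 (3.84 ± 0.55, adjusted p 7.53e-06). Gene 5329 had 355, 235 and 307 in lamellae against 37.1, 33.9 and 38.1 (3.08 ± 0.48, adjusted p 2.12e-05). In these 4 genes no lamellae library overlapped a mature cap library.

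Skin and mature cap differed in 5 members, of which 3 were higher and 2 lower in skin, 3.33% and 2.22%, beside 3.5% and 1.12% of all genes tested and 2.13% and 1.06% of those past the count minimum. Gene 11885 was at 48.6, 76.8 and 61.5 FPKM in skin against 7.81, 7.69 and 6.50 in mature cap (3.10 ± 0.34, adjusted p 1.61e-06). Gene 11892 was at 34.7, 41.3 and 39.5 against 7.58, 13.1 and 13.02 (1.80 ± 0.43, adjusted p 0.01), a call lost without mature cap replicate 1 (adjusted p 0.0692). Without any 1 of the 6 libraries the count was 2 or 3. It was 2, 3 and 3 without mature cap replicates 1, 2 and 3 in turn. In those fits 192, 154 and 136 of the 6807 genes past the count minimum were called, against 217 in the reported fit. With library size alone 4 members were higher and 0 lower, as the median over all genes shifted by 0.23. Of the 6807 genes past the count minimum, 212 were higher and 31 lower in that setting. With all 32 libraries in the fit 3 members were higher and 1 lower, beside 137 and 72 of the genes past the count minimum.

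Gene 512 was lower in skin, at 454, 317 and 410 FPKM against 971, 1164 and 840 (-1.33 ± 0.30, adjusted p 0.00684), with 54.4 and 73.2 in dedifferentiated cap. Its call was lost without skin replicate 2 (adjusted p 0.052) and with library size alone (0.0586). Gene 3149 was at 1794, 1213 and 1959 in skin against 3424, 4319 and 3130 (-1.13 ± 0.33, adjusted p 0.0485), and that call was lost without any 1 of the 6 libraries (0.0707 to 0.227). In dedifferentiated cap gene 3149 had 80.6 and 35.3 FPKM.

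Between mature stipe and mature cap 1 member was called, gene 4105, lower in stipe at 75.1, 60.8 and 88.3 FPKM against 146, 171 and 149 (-1.09 ± 0.25, adjusted p 0.0204), 1.11% of members. The background for lower calls was 0.251% of all genes tested and 0.25% of those past the count minimum, and for higher calls, with 0 members, 1.39% and 1.19%. The call was lost in 5 of the 6 fits without a library, all but that without mature stipe replicate 3, with adjusted p up to 0.16. A p that misses the threshold does not show that these tissues were alike. An unadjusted p under 0.05 was found in 6 of the 90 members, and the share over all genes was not computed. DESeq2's test called 1 member higher and 1 lower, beside 260 and 74 of 10754 genes. EdgeR fitted to only these groups called 3 members higher and 1 lower, beside 268 and 86 of 10184 genes. In that fit 27 members had an unadjusted p under 0.05, again without the share over all genes. Nothing is read from these unadjusted counts.

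The last step differed between cap and stipe in 5 members, tested as the cap change minus the stipe change with no fold threshold and an adjusted p under 0.05. That is 5.56% of the members, beside 2.56% of all genes tested and 2% of those past the count minimum. Gene 11885 changed by -3.12 ± 0.34 in cap and by -0.72 ± 0.32 in stipe, where it was not called (adjusted p 0.0739), a difference of -2.40 ± 0.46 (adjusted p 0.00391). Gene 5722 fell in cap, from 104, 114 and 76.6 FPKM to 28.1, 36.8 and 62.5 (-1.31 ± 0.43, adjusted p 0.0171), and rose in stipe as given above, a difference of -3.06 ± 0.61 (adjusted p 0.00682). Both differences held without any 1 of the 12 libraries. Gene 5429 differed by -1.99 ± 0.45 (adjusted p 0.0185), with 183 and 184 FPKM in dedifferentiated cap. The count was 2 without young stipe replicate 1, and 3 without young cap replicate 3, young stipe replicate 3, mature cap replicate 1 or mature stipe replicate 1. Calls among the 6807 genes past the count minimum fell too, from 136 in the reported fit to 51 without young stipe replicate 1. They were 85, 66 and 68 without young cap replicate 3, young stipe replicate 3 and mature cap replicate 1, in that order.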

How the data were processed

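RNA from 32 libraries in 11 groups, grouped by sample titles, was made into strand-specific poly(A) libraries, per the labels' protocols. The submitters' processing notes name STAR, featureCounts, R 3.0.2, edgeR 3.4.2 and limma 3.18.13, with no role or order. The genome build: not given in the sources used here. The authors deposited expected counts per gene, of which 95.2% of values above 0 were whole within 1e-06; fractional counts occurred in 32 of the 90 members (35.6%, against 25.6% of genes past the count minimum), and such genes may share reads with a similar gene. Gene 5429 had fractional counts in 17 of the 32 libraries and gene 8372 in 15. The authors also deposited log2 FPKM values, which were turned back to FPKM here. Levels and membership come from that table, and fold changes from counts rounded to whole numbers. Library scaling in the log2 FPKM values matched TMM-scaled library sizes to within 0.0042 log2, with TMM factors from 0.69 to 1.18.

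Tests used edgeR 4.0.16 in R 4.3.3 (filterByExpr, TMM, robust quasi-likelihood, a mean per group, 20 residual degrees of freedom) over 10754 genes, which held 99.994% or more of every library's counts. The dedifferentiated cap was left out of that fit because its values chose the members. The functions were tested on simulated data. Alternatives were DESeq2 1.42.0 size factors and test, library size alone, no filter, all 32 libraries, only the compared groups, limma 3.58.1 on log2(FPKM + 1) and log2(FPKM + 0.1), the replicate number as a block, other thresholds and leaving out each library. Titles number the dedifferentiated cap libraries 1 and 2 while descriptions say 2 and 3. None of 31 replicate pairs held identical values.

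The members, the comparisons and the rules were chosen with earlier results of these data known. Named were the 10 members with the largest gap, the 2 largest called rises and falls in each comparison, the 3 most abundant, the 3 with the smallest and 2 with the largest range, up to 3 called in the interaction, and those beside the threshold. Of the 11849 entries of the reference gene list, 0 matched a file identifier.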

Additional observations from a re-analysis of the deposited data

Results flagged for a closer look

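Changes of 5 members differed between cap and stipe from young to mature fruiting bodies, by the interaction test in edgeR with n = 3 libraries in each of the 4 groups. The values are the log2 change of cap minus that of stipe. Gene 11885 had -2.40 (adjusted p 0.00391) and gene 5722 had -3.06 (adjusted p 0.00682). Gene 5429 had -1.99 (adjusted p 0.0185), called in 8 of the 12 fits that each left out a library. Genes 10413 and 3149 were chosen after their values were seen: gene 10413 had -2.15 (adjusted p 0.0199), called in 9 of the 12, and gene 3149 had 1.87 (adjusted p 0.0298), called in 3 of the 12.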

How the results depend on the processing

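Of the 420 values of 26 gene results under the alternatives, 385 kept direction and call, 35 lost the call (29 of them with a library left out) and 0 changed direction. The number of members was 339 with a gap of 0.5, 13 with a gap of 2, 163 with no count minimum, 15 when the higher dedifferentiated cap library had to lie at least 1 below every other library, and 80 to 159 with a library left out. It was 131 with a count minimum of 20, 78 with library size alone (74 of them members), 73 with DESeq2 size factors and 78 with log2(FPKM + 1), all of these last 2 lists being members. The cause was not tested.

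With a 4-fold threshold the calls were 10 for stage 1 primordia against mycelium, 8 for the last cap step, 1 for the last stipe step, 0 for mature stipe against cap, 9 for lamellae and 1 for skin. The F test gave 67 members with a 2-fold range. These counts stand without the shares over all genes and describe the settings only. Mature stipe against cap gave 0 members with library size alone (142 of 10754 genes called) and with all 32 libraries (182 of 10814). It gave 4 members with only the compared groups (354 of 10184 genes) and 2 with DESeq2 (334 of 10754). Skin gave 11 members with only the compared groups, where 770 of 10340 genes were called, 391 of the 6807 past the count minimum. With DESeq2 skin gave 8 members, where 626 of 10754 genes were called, 261 of the 6807. Counts of members with a library left out follow in the order of the 4-fold counts above. They ran from 25 to 29, 21 to 27, 14 to 18, 0 to 1, 25 to 29 and 2 to 3. In the F test they ran from 41 to 45 and in the interaction from 2 to 5. For stage 1 primordia against mycelium, 2609 to 3099 of the 6807 genes past the count minimum were called, against 2889 in the reported fit. For the last cap step 1983 to 2435 were called, against 2457. The other ranges stand without the shares over all genes and describe the settings only. Library size alone shifted the median over all genes by 0.11 in stage 1 primordia against mycelium and by 0.24 in lamellae against mature cap, and it turned the members' median change to -0.111 in the last cap step, -0.0525 in the last stipe step and -0.0245 in mature stipe against cap. Fits of only the compared groups were not run for the F test, where they equal the reported fit.

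Whether same-numbered replicates were paired could not be settled. Correlations of same-numbered deviations were 0.716, 0.710 and -0.139 for lamellae with mature cap. For skin with mature cap they were -0.562, -0.699 and -0.0358. With 3 replicates in a group, such values are too few to show or exclude pairing. The replicate block called 27, 26, 20, 1, 31 and 3 members, in the order of the 4-fold counts above. Of the 6807 genes past the count minimum it called 2882, 2422, 2227, 100, 1652 and 213. The reported fit called 2889, 2457, 2225, 98, 1647 and 217 of them. With 2 dedifferentiated cap libraries, the membership of single genes rests on few counts where FPKM was low.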
